A study of Danio rerio with 4 samples.

Results

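The genes described are csf3a and csf3b, the zebrafish genes for the ligand granulocyte colony-stimulating factor (G-CSF), and csf3r, the gene for its receptor. They were chosen by symbol and make up 3 of the 31947 genes in the deposited count table, each with 1 Ensembl row. Their identifiers are ENSDARG00000102211 for csf3a, ENSDARG00000098752 for csf3b and ENSDARG00000045959 for csf3r. All 3 passed the filter on low counts, which left 19016 genes for testing.

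G-CSF is a secreted cytokine that binds a receptor without kinase activity of its own, which signals through the Jak kinases and Stat3 and Stat5. In vertebrates it drives the production, survival and mobilisation of neutrophils, and its gene is switched on in endothelial cells, fibroblasts and macrophages by inflammatory stimuli such as interleukin-1 and tumour necrosis factor. Zebrafish carry a pair of ligand genes and a single receptor gene, and in the embryo the pathway is known to support both myeloid cells and blood stem cells.

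RNA sequencing was performed on cells sorted from the tails of zebrafish (Danio rerio) embryos aged 52 hours post fertilisation, where the caudal hematopoietic tissue (CHT) houses newly arrived blood stem and progenitor cells. The group CHT-EC (2 libraries) was sorted for mCherry driven by kdrl, an endothelial promoter, and the group CHT-HSPC (2 libraries) for GFP driven by CD41, a promoter active in stem and progenitor cells and also in thrombocytes. No mutation or treatment is named for either group. How many embryos went into a library, and whether replicate libraries derive from independent clutches or independent sorts, is not stated in the labels. The p-values thus reflect the spread between these libraries alone, and that spread may be technical.

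Totals were 27514202 to 32268535 counts per library, lowest in CHT-EC replicate 1. Genes with a count numbered 23309 and 19950 in CHT-EC replicates 1 and 2 and 19598 and 21389 in CHT-HSPC replicates 1 and 2. The gates enriched unevenly. The CD41 gene itga2b had 4.68 and 9.30 CPM (a count scaled for library size, here with TMM factors) in the CHT-EC libraries and 56.2 and 86.9 CPM in the CHT-HSPC libraries, and its log2 fold change of −3.35 passed the test (adjusted p = 0.0158, and 0.0743 without CHT-EC replicate 1). The reporter gene kdrl had 14.5 and 3.40 CPM in the CHT-EC libraries and 3.07 and 0.896 CPM in the CHT-HSPC libraries and did not pass (edgeR adjusted p = 0.208). Neutrophil transcripts (17 genes) took 2.26% and 1.80% of the counts in the CHT-EC libraries and 0.110% and 0.139% in CHT-HSPC. The 23 endothelial genes summed to 0.0922% and 0.0749% in the CHT-EC libraries and 0.0449% and 0.0451% in CHT-HSPC. Their log2 fold change (CHT-EC minus CHT-HSPC) was above 0 for 21 of 23, with a median of 2.16. Of these 23 genes, edgeR and limma-voom each called 2 higher in CHT-EC, and DESeq2 called 12. Of all tested genes, edgeR called 3.78% in that direction, limma-voom 3.71% and DESeq2 10.6%. The groups are therefore named by their gates, and in bulk libraries fewer cells of a type and less RNA per cell cannot be told apart.

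Both ligand genes were higher in CHT-EC than in CHT-HSPC, and the receptor gene lay on the same side without passing the test. That is 2 of 3 members called higher in CHT-EC, where 3.78% of all tested genes were called in that direction (quasi-likelihood test of edgeR, with a threshold of 0.05 on the p adjusted by Benjamini-Hochberg over all tested genes). For each of the 3 genes both CHT-EC libraries lay above both CHT-HSPC libraries, as they did for 30.6% of tested genes. The plot of levels by library shows that the ligands and the receptor differed in which library stood apart from its partner.

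**Figure D1:**
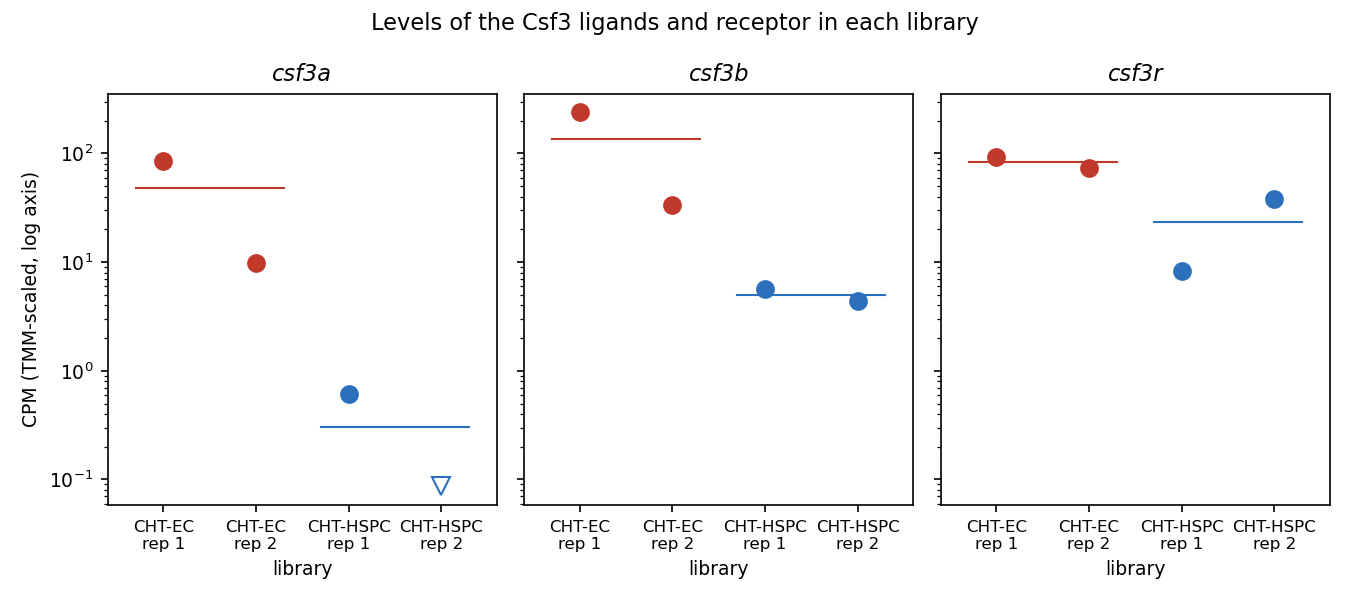
Level of csf3a, csf3b and csf3r in each library, in TMM-scaled CPM on a log axis, with red for CHT-EC, blue for CHT-HSPC, and a line at the mean of each group (n = 2 libraries). The open triangle marks a library with 0 counts, drawn at the level of 3 counts (0.0867 CPM). The ligands reach 86.2 and 239.9 CPM in CHT-EC replicate 1, and csf3r is lowest in CHT-HSPC replicate 1 at 8.35 CPM.

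The ligand csf3b had 6406 and 990 counts in CHT-EC replicates 1 and 2 and 168 and 152 counts in CHT-HSPC replicates 1 and 2. On the CPM scale these were 239.9 and 33.6 in the CHT-EC libraries and 5.66 and 4.39 in CHT-HSPC. The CHT-HSPC libraries lay close together, whereas CHT-EC replicate 1 stood 7.14-fold above replicate 2. Group levels were 137 ± 146 CPM in the CHT-EC libraries and 5.02 ± 0.896 CPM in the CHT-HSPC libraries (mean ± SD, n = 2 libraries here and below). The log2 fold change was 4.77 (SE 0.89, 95% interval 2.67 to 6.87, adjusted p = 0.0361). Between single libraries, the fold difference ranged from 5.94 for CHT-EC replicate 2 over CHT-HSPC replicate 1 to 54.6 for CHT-EC replicate 1 over CHT-HSPC replicate 2. The direction therefore held for every pairing of libraries, while the size depended on which CHT-EC library was used. Without CHT-EC replicate 1 the log2 fold change was 2.75 (adjusted p = 0.0829), without CHT-EC replicate 2 it was 5.59 (0.00163), and the call also ended without CHT-HSPC replicate 1 (0.0518), without CHT-HSPC replicate 2 (0.0634) and with limma-voom (0.0764), which placed 3.71% of genes higher in CHT-EC.

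The ligand csf3a was lower in counts throughout. It had 2301 and 288 counts in CHT-EC replicates 1 and 2, and 18 and 0 in CHT-HSPC replicates 1 and 2. The corresponding levels were 86.2 and 9.78 CPM in the CHT-EC libraries and 0.606 and 0 CPM in the CHT-HSPC libraries, where 3 counts, taken as the most that a count of 0 can hide, correspond to 0.0867 CPM. As for csf3b, CHT-EC replicate 1 was the high library, 8.81-fold above replicate 2. Group levels were 48.0 ± 54.0 CPM and 0.303 ± 0.429 CPM, and the log2 fold change was 7.34 (SE 1.56, 95% interval 3.66 to 11.02, adjusted p = 0.0491). Even the lower CHT-EC library was 16.1-fold above CHT-HSPC replicate 1, and at least 113-fold higher than the level that 3 counts give in CHT-HSPC replicate 2. The call lay at the threshold. The log2 fold change was 8.20 with CHT-EC replicate 2 left out and 6.34 with CHT-HSPC replicate 2 left out. The call ended without CHT-EC replicate 1 (log2 fold change 5.04, adjusted p = 0.283), with library totals alone (0.0606), with DESeq2 (0.0533) and with limma-voom (0.362).

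The excess of CHT-EC replicate 1 over replicate 2 was uncommon among genes. Of the 19016 tested genes, 57 (0.300%) had a ratio of replicate 1 to replicate 2, on the log2(CPM + 0.5) scale, at least as high as that of csf3a. For csf3b the number was 91 (0.479%). The receptor differed by 1.27-fold between the same libraries, a ratio reached by 6225 genes. Several marker lists also ran higher in CHT-EC replicate 1, while others ran lower there. Erythroid genes (12) took 1.92% and 3.52% of the counts in CHT-EC replicates 1 and 2. Muscle genes (12) summed to 2143 and 4592 CPM in these libraries. In each of these 2 lists, 0 genes were higher in replicate 1. The summed level of 13 stromal and notochord genes was 17413 and 5268 CPM in replicates 1 and 2 of CHT-EC, against 2323 and 877 CPM in the CHT-HSPC libraries, with PDGFRB at 0 in all 4 libraries. The collagen gene col2a1a made up 12594 and 3106 CPM of the CHT-EC sums and 40.8 and 73.5 CPM of the CHT-HSPC sums. Another collagen gene, col1a1a, had 2370 and 1224.5 CPM against 1635 and 564 CPM and did not pass (edgeR adjusted p = 0.455). Of 12 tested genes of this list, edgeR called 4 higher in CHT-EC, beside 3.78% of all tested genes. Skin genes (12) summed to 5261 and 2463 CPM in CHT-EC, a ratio of 2.14. Endothelial genes (23) differed by 1.26-fold in sum, but 14 of them were over 2-fold higher in replicate 1 and none was over 2-fold higher in replicate 2. Their median level was 24.2 CPM against 7.98 CPM, and the cadherin gene cdh5 had 19.8 and 1.05 CPM. Neutrophil genes (17) differed by 1.29-fold in sum, with 1 gene over 2-fold higher in replicate 1 and 1 in replicate 2, and macrophage genes (14) by 1.08-fold, with 4 over 2-fold higher in replicate 1. The part of these other cells in the ligand levels was not tested.

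Within a library, csf3b took the larger part of the ligand counts. There were 2.78 csf3b counts per csf3a count in CHT-EC replicate 1 (95% Clopper-Pearson interval 2.65 to 2.92) and 3.44 in CHT-EC replicate 2 (3.01 to 3.93). In CHT-HSPC replicate 1 the ratio was 9.33 (5.73 to 16.1), and in CHT-HSPC replicate 2, with 152 csf3b counts and no csf3a count, it was above 40.7. Expressed as a share of the pair, csf3b made up 73.6% and 77.5% of ligand counts in the CHT-EC libraries and 90.3% and 100% in CHT-HSPC. The groups did not overlap in this share. With 2 libraries against 2, an exact permutation test (two-sided) cannot give a p below 0.333, so this difference was not tested, and the intervals cover counting error only. The ratio compares counts and not molecules, because the transcripts may differ in length. Whether reads could be shared between the paralogs was not tested, and how multiply mapped reads were handled is not given.

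**Figure D2:**
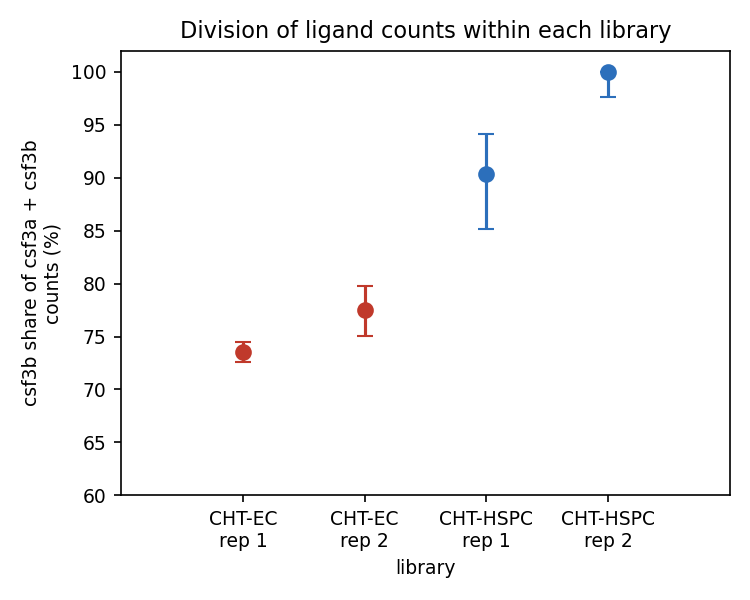
Share of csf3b in the summed counts of csf3a and csf3b, in percent, for each library, with red for CHT-EC and blue for CHT-HSPC. Bars are 95% Clopper-Pearson intervals for counting error, and the vertical axis starts at 60%. The CHT-EC libraries lie at 73.6% and 77.5% and the CHT-HSPC libraries at 90.3% and 100%.

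The receptor csf3r was present in both groups, with both CHT-EC libraries above both CHT-HSPC libraries, as for 30.6% of tested genes. It had 2501 and 2176 counts in CHT-EC replicates 1 and 2 and 248 and 1324 counts in CHT-HSPC replicates 1 and 2. The levels were 93.7 and 73.9 CPM in the CHT-EC libraries and 8.35 and 38.2 CPM in the CHT-HSPC libraries. The CHT-EC libraries lay 1.27-fold apart, and the CHT-HSPC libraries lay further apart, replicate 1 being 0.218 times replicate 2. Only 271 tested genes (1.43%) were at least as low in CHT-HSPC replicate 1 relative to replicate 2. Single CHT-EC libraries exceeded single CHT-HSPC libraries by 1.93-fold to 11.2-fold. Group levels were 83.8 ± 14.0 CPM in the CHT-EC libraries and 23.3 ± 21.1 CPM in the CHT-HSPC libraries. The log2 fold change was 1.84 (SE 0.64, 95% interval 0.33 to 3.36), with an unadjusted p of 0.0238 and an adjusted p of 0.146 in the edgeR quasi-likelihood test. The interval reaches from a small to a large excess in CHT-EC. The value rested on CHT-HSPC replicate 2, without which the log2 fold change was 3.36 and passed (adjusted p = 0.0115), while without CHT-HSPC replicate 1 it was 1.13 (0.166). The gene was also called with DESeq2 (0.0277) and when low counts were left in (7.34e-06). Those settings placed more genes higher in CHT-EC, 10.6% with DESeq2 and 8.5% with low counts left in, and 4.24% were so called without CHT-HSPC replicate 2.

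**Figure D3:**
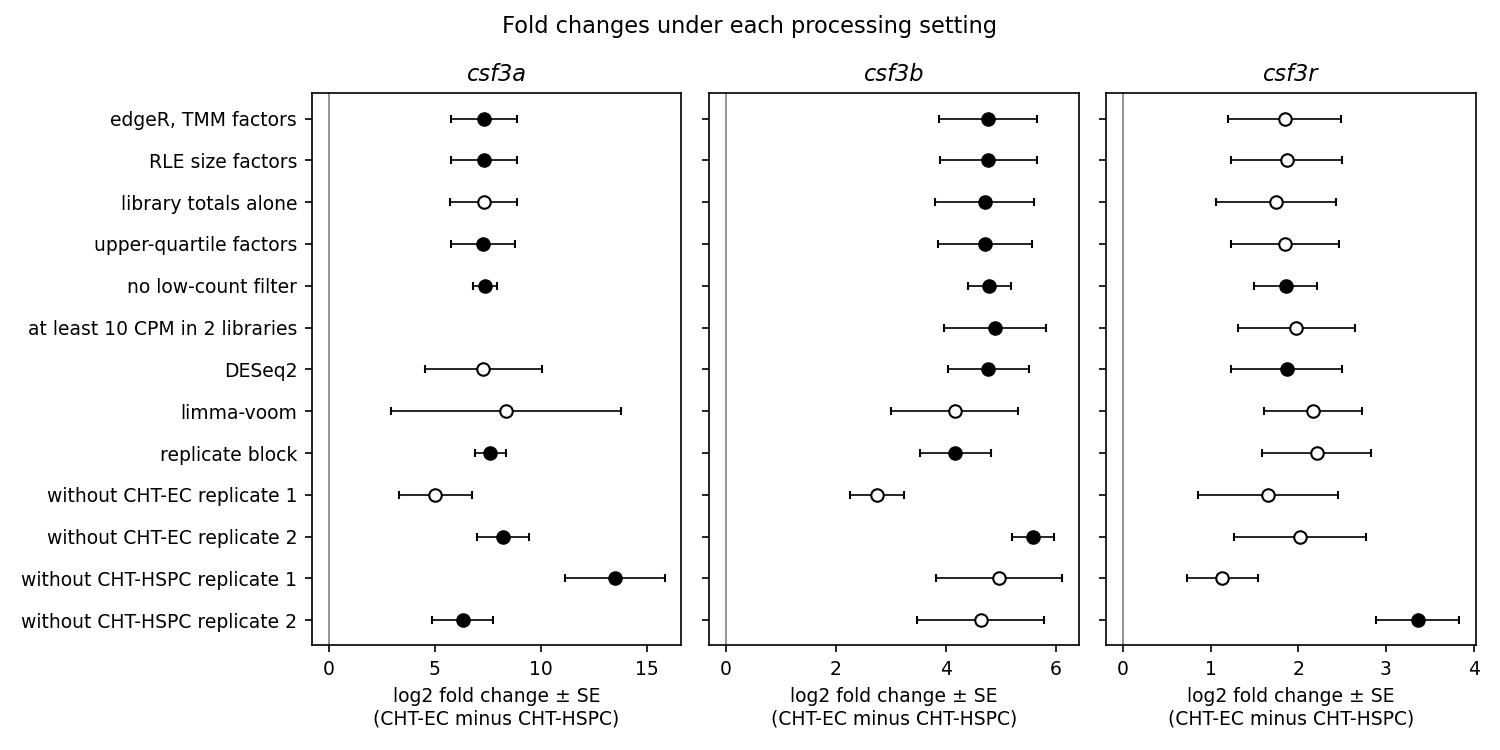
Log2 fold change (CHT-EC minus CHT-HSPC) of each gene with its SE under each processing setting, where filled points have an adjusted p under 0.05 and open points do not. All points lie on the CHT-EC side of the grey line at 0. The ligand values are lowest without CHT-EC replicate 1 (5.04 for csf3a and 2.75 for csf3b), and csf3r ranges from 1.13 to 3.36 with 1 CHT-HSPC library left out. The csf3a value of 13.51 without CHT-HSPC replicate 1 is set against a lone library with 0 counts and has no fixed size.

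In the embryo csf3r is best known as a gene of neutrophils and their precursors, so its level was set beside neutrophil transcripts. The myeloperoxidase gene mpx had 2201 and 2610 CPM in the CHT-EC libraries and 59.7 and 83.2 CPM in the CHT-HSPC libraries. The lysozyme gene lyz had 11070.4 and 7555 CPM in the CHT-EC libraries and 196 and 338 CPM in the CHT-HSPC libraries. Both neutrophil genes and csf3r thus had their higher values in the CHT-EC libraries, but by different amounts. Per 1000 CPM of the 17 neutrophil genes, csf3r amounted to 4.02 and 4.08 CPM in CHT-EC, 7.33 in CHT-HSPC replicate 1 and 29.6 in CHT-HSPC replicate 2. Both CHT-HSPC libraries had more csf3r relative to neutrophil transcripts than either CHT-EC library. The neutrophil sums of the CHT-HSPC libraries were 1140 and 1292 CPM, to which the matrix protease gene mmp9 gave 456 and 382 CPM. Of the 17 genes, 12 were lower in CHT-HSPC replicate 1 than in replicate 2, 6 of them by over 2-fold, among them the NADPH oxidase subunit gene ncf1 with 18.6 and 60.8 CPM and the integrin gene itgb2 with 21.9 and 66.5 CPM. The ratio of ncf1 was 0.305 and that of itgb2 0.329, beside 0.218 for csf3r. These were among the lowest ratios of the list, where mpx had 0.718 and mmp13a 1.52. A low CHT-HSPC replicate 1 was not particular to neutrophil genes. Of 30 receptor genes of other blood cell cytokines, 23 were lower in replicate 1 than in replicate 2. Of these 30 genes, 15 were over 2-fold lower in replicate 1 and 2 were over 2-fold higher. Macrophage transcripts (14 genes), like the neutrophil genes, ran toward CHT-EC, where they summed to 1293 and 1195 CPM. Of the 14 genes edgeR called 8 on that side and 0 on the other, beside 3.78% of all tested genes. Their median log2 fold change was 5.01. The macrophage gene mpeg1.1 had 53.0 and 60.6 CPM in CHT-EC against 0.269 and 0.202 CPM (edgeR adjusted p = 0.00357). In CHT-HSPC the macrophage sum was 110 CPM in replicate 1 and 264 CPM in replicate 2, with 4 and 3 of 14 genes at 0. Of these sums csf1rb, a paralog of the macrophage receptor gene, made up 72.3 and 215 CPM, and the other 13 genes 37.4 and 49.3 CPM. Muscle genes summed to 10894.6 and 1377 CPM in CHT-HSPC replicates 1 and 2. The part of these cells in the csf3r difference was not tested.

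**Figure D4:**
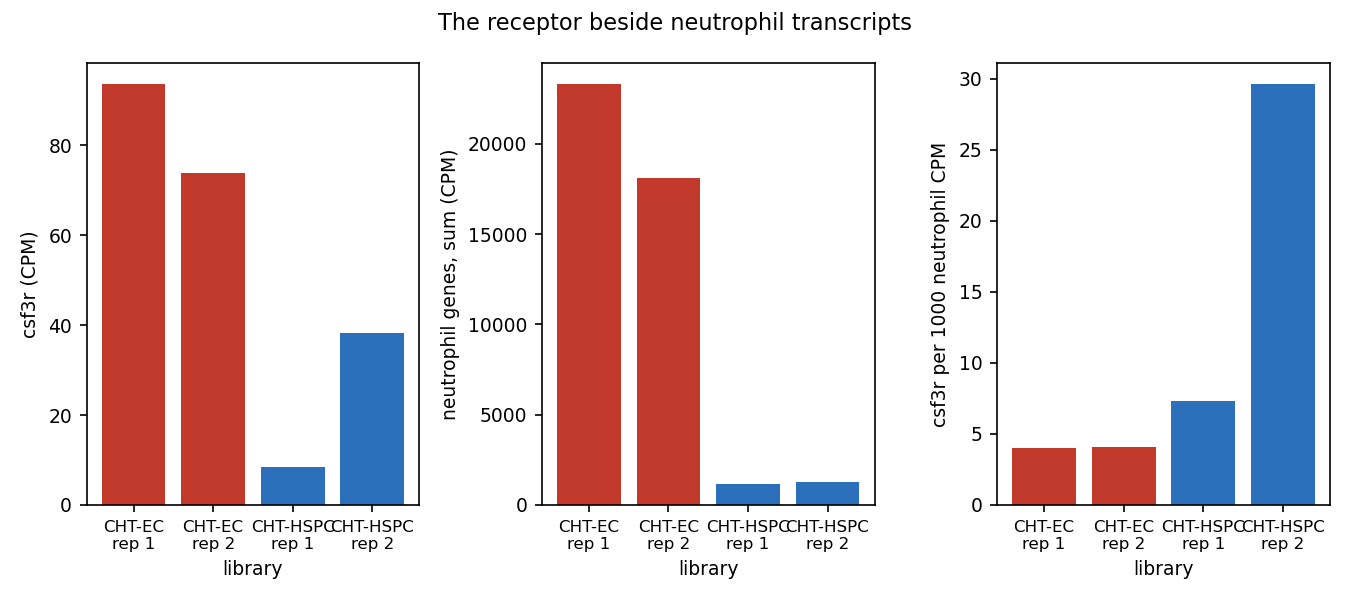
Level of csf3r in CPM (left), summed CPM of 17 neutrophil genes (middle) and csf3r CPM per 1000 CPM of those genes (right) for each library, with red for CHT-EC and blue for CHT-HSPC. The ratio is 4.02 and 4.08 in the CHT-EC libraries against 7.33 and 29.6 in CHT-HSPC.

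Most genes that transmit the receptor's signal did not pass the test. Of 36 listed genes 34 were tested, and 4 were higher in CHT-EC and none in CHT-HSPC. That is 11.8%, beside 4.53% of all tested genes called in either direction, and the list's median log2 fold change was 0.05 against 0.02 over all tested genes. At an unadjusted p under 0.05, edgeR placed 8 higher in the CHT-EC libraries and 3 higher in CHT-HSPC, as it did 14.6% and 9.23% of all tested genes. DESeq2 called 7 and 1, and limma-voom called 5 and 1. Those tools called 14.8% (DESeq2) and 4.93% (limma-voom) of all genes. The called genes were the granulocyte transcription factor gene that a gene-name table lists as cebp1 (si:ch211-198c1.7, log2 fold change 3.50, adjusted p = 0.0193), the myeloid regulator cebpa (2.92, adjusted p = 0.0135), the Src family kinase hck (225 and 193 against 38.2 and 59.3 CPM, adjusted p = 0.0199) and cebpb (1.52, adjusted p = 0.0199). The factor cebpb, which acts in granulopoiesis under stress, had the highest CPM of the list, with 2745 and 2745 in the CHT-EC libraries and 888 and 1022 in CHT-HSPC. The call of cebpb also ended without CHT-EC replicate 2 (0.0539). All 4 calls ended without CHT-EC replicate 1. That fit has a lone CHT-EC library and called fewer of all tested genes as well. The list's median log2 fold change there was 0.01. Neutrophil genes moved the same way, with 13 of 16 tested members higher in CHT-EC, and that list also holds cebp1. The part of neutrophils in these calls was not tested.

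The core of the pathway, named here for its role, did not pass the test. The kinase gene jak2a had 253 and 334 CPM in the CHT-EC libraries and 469.8 and 352 CPM in the CHT-HSPC libraries (log2 fold change −0.49, adjusted p = 0.337). For stat3, the transcription factor activated by the receptor, the levels were 152 and 124 CPM against 118 and 135 CPM (log2 fold change 0.12, adjusted p = 0.818). The feedback inhibitor gene socs3b, a target of Stat3, had 331 and 204 CPM in the CHT-EC libraries and 108 and 34.3 CPM in the CHT-HSPC libraries. Its log2 fold change of 1.91 missed the threshold (adjusted p = 0.0982). Both CHT-EC libraries lay above both CHT-HSPC libraries, as for 30.6% of tested genes. It was called with DESeq2 (0.00684) and limma-voom (0.0415), which placed 10.6% and 3.71% of tested genes higher in CHT-EC. Its paralog socs3a was too low to be tested.

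Other secreted cytokines shared the side of the ligands and, in part, the same high library. Of 23 listed genes 17 were tested, 4 were higher in CHT-EC and none in CHT-HSPC, where edgeR called 3.78% of all tested genes higher in CHT-EC. At an unadjusted p under 0.05 edgeR had 9 and 0, beside 14.6% of all genes toward CHT-EC. DESeq2 called 9 and 0, beside 10.6%, and limma-voom 2 and 0, beside 3.71%. The median log2 fold change was 2.50, beside 0.02 over all tested genes. The gene il6, for interleukin-6, a cytokine of the same structural family as G-CSF, had 127 and 12.9 CPM in the CHT-EC libraries and 0.606 and 0.722 CPM in the CHT-HSPC libraries (log2 fold change 6.71, adjusted p = 0.0274). The gene m17, the zebrafish leukemia inhibitory factor gene, had 1871 and 254 counts against 0 and 17 counts (7.25, adjusted p = 0.0448). In both, CHT-EC replicate 1 was far above replicate 2, by 9.86-fold for il6 and 8.12-fold for m17, as for csf3a and csf3b. Without CHT-EC replicate 1 edgeR called 2 of 19 tested members higher in CHT-EC, beside 0.546% of all genes, and without CHT-EC replicate 2 it called 7 of 18, beside 2.82%. Both il6 and m17 lost their call when replicate 1 was left out (0.0833 for il6 and 0.277 for m17) and with limma-voom (0.212 and 0.362). The macrophage growth factor gene il34 had the highest CPM of the list, with 205 and 121 in the CHT-EC libraries against 12.5 and 18.9 in CHT-HSPC (3.38, adjusted p = 0.0116). The gene il4, a cytokine of type 2 immunity, had 13.0 and 20.3 CPM in CHT-EC and no count in CHT-HSPC, so the lower CHT-EC library was at least 128-fold higher than the level of 3 counts per library. These latter genes did not follow the ligands between the CHT-EC libraries, with ratios of replicate 1 to 2 of 1.69 for il34 and 0.637 for il4.

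Among 33 genes that induce Csf3 in mammals or are induced with it, 30 were tested, and 4 were higher in CHT-EC and none in CHT-HSPC. The share of all tested genes called higher in CHT-EC was 3.78%. The edgeR test gave 11 and 0 at an unadjusted p under 0.05, beside 14.6% of all genes toward CHT-EC, DESeq2 called 10 and 0, beside 10.6%, and limma-voom 4 and 0, beside 3.71%. The median log2 fold change was 0.78, or 0.02 without CHT-EC replicate 1, where 2 genes were called beside 0.546% of all genes, and 8 were called without CHT-EC replicate 2, beside 2.82%. The gene il1b, for interleukin-1 beta, had 1799 and 470.5 CPM in the CHT-EC libraries and 48.4 and 41.8 CPM in the CHT-HSPC libraries (log2 fold change 4.65, adjusted p = 0.0162), and it kept its call without CHT-EC replicate 1 (0.0179). The flagellin receptor gene tlr5b had 126 and 31.0 CPM against 2.49 and 5.17 CPM (4.35, adjusted p = 0.0291, and 0.116 without CHT-EC replicate 1). The other called genes were the matrix protease gene mmp9 (2.82, adjusted p = 0.00763), which is also on the neutrophil list, and cebpb, which is also on the signalling list. The tumour necrosis factor gene tnfa, named for its role, had 50.9 and 2.99 CPM in the CHT-EC libraries and 0 and 0.867 CPM in the CHT-HSPC libraries, and its log2 fold change of 5.91 did not pass (adjusted p = 0.104). Between the CHT-EC libraries, il1b differed by 3.82-fold and tnfa by more than that, both with replicate 1 as the high one.

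Among 30 tested receptors of other blood cell cytokines, edgeR called 1 higher in the CHT-EC libraries and 2 higher in CHT-HSPC. Of all tested genes, 3.78% and 0.752% were so called. DESeq2 called 5 and 4, beside 10.6% and 4.19%, and limma-voom 3 and 2, beside 3.71% and 1.23%. The macrophage receptor gene csf1ra had 116 and 105 CPM in the CHT-EC libraries and 7.24 and 3.64 CPM in the CHT-HSPC libraries (log2 fold change 4.34, adjusted p = 0.00812). The thrombopoietin receptor gene mpl had 12.8 and 21.9 CPM in the CHT-EC libraries and 160 and 167 CPM in the CHT-HSPC libraries (−3.24, adjusted p = 0.0101). The erythropoietin receptor gene epor had 45.3 and 82.3 CPM against 229.9 and 209.6 CPM (−1.78, adjusted p = 0.0379), a call lost on leaving out CHT-EC replicate 1 (0.149) and on leaving out CHT-HSPC replicate 1 (0.0572). The called receptors and csf3r serve growth factors of blood lineages. Of these, mpl and epor lay toward CHT-HSPC, and csf3r lay on the side of csf1ra but not past the threshold. The paralog csf1rb did not pass the edgeR test (log2 fold change 0.43, adjusted p = 0.637). It had 172 and 215 CPM in the CHT-EC libraries and 72.3 and 215 CPM in the CHT-HSPC libraries. The gene il6r, for the interleukin-6 receptor, had the highest CPM of the list, with 345 and 181 in the CHT-EC libraries and 72.6 and 135 in CHT-HSPC (1.34, adjusted p = 0.121).

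The genes nearest to each member in pattern were found among 11268 tested genes with a symbol and at least 5 CPM on average in 1 group, by the root mean square difference of centred log2(CPM + 0.5) profiles over the 4 libraries. For csf3a these were tgm2l, a transglutaminase gene (difference 0.42), the cartilage and notochord collagen gene col11a1a (0.44), the notochord transcription factor gene ta, also known as brachyury (0.45), the matrix protein gene chad (0.47) and il6 (0.47). For csf3b the nearest 4 were the connective tissue growth factor gene ctgfa (0.23), the receptor gene gpr84 (0.24), the hedgehog ligand gene shha (0.24) and the G-protein regulator gene rgs2 (0.26). These genes, being chosen by profile, shared a high CHT-EC replicate 1. The gene ta had 335 and 95.2 CPM in the CHT-EC libraries and 5.56 and 2.22 CPM in the CHT-HSPC libraries, and shha had 155 and 21.7 CPM against 2.56 and 3.41 CPM. Among the candidates, csf3b ranked 21 for csf3a, and csf3a ranked 82 for csf3b (difference 0.71).

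For csf3r the nearest genes were C7H4orf48 (0.15), slc44a5b (0.15), a gene of the choline transporter-like family, the G-protein-coupled receptor gene gpr132b (0.16), TSG101, a gene of endosomal sorting (0.19), and apbb1ip, an adaptor gene of leukocyte integrin activation (0.21). They shared with csf3r a low CHT-HSPC replicate 1, as in gpr132b with 35.2 and 24.4 CPM in the CHT-EC libraries and 2.39 and 10.2 CPM in the CHT-HSPC libraries. Their adjusted p in the edgeR test ran from 0.112 to 0.282, beside 0.146 for csf3r. The genes were chosen by profile, so these likenesses come with the choice. The receptor was far from its ligands in pattern, at differences of 2.18 from csf3a and 1.55 from csf3b. With 4 libraries many genes share a profile, so the likeness is a description.

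**Figure D5:**
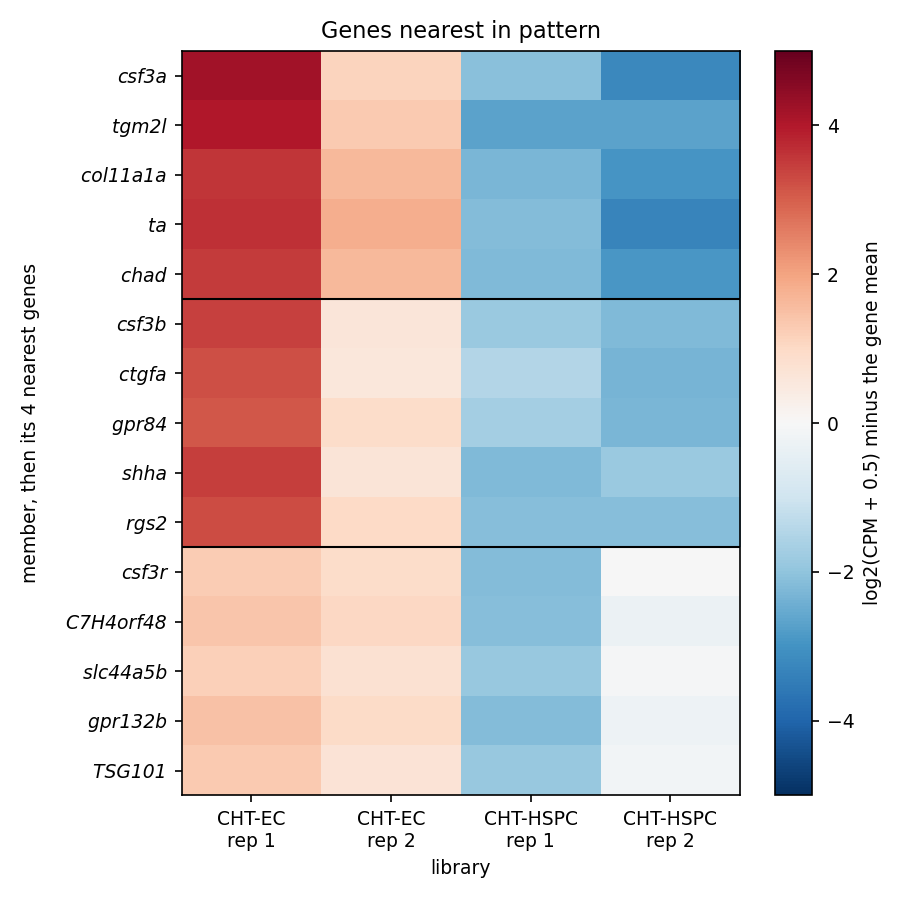
Log2(CPM + 0.5) minus the gene's own mean over the 4 libraries, for csf3a, csf3b and csf3r, each followed by its 4 nearest genes, with red above and blue below the mean. The ligand rows are darkest in CHT-EC replicate 1, while the csf3r rows are alike in both CHT-EC libraries and lowest in CHT-HSPC replicate 1.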

How the data were processed

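The deposited file is 1 table of gene-level counts for the 4 libraries, taken as not normalised because the values are whole numbers with differing totals. TopHat2, HTSeq 0.6.1 and the build GRCz10 are named in the submitters' processing notes. Strand and the handling of multiply mapped reads are not given in the sources used here. Per the labels' protocols, libraries were made with NEBNext Ultra and read as 150 bp pairs. Columns were tied to samples by name (the table writes HSC for HSPC).

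Groups were compared by edgeR 4.0.16 in R 4.3.3, using its quasi-likelihood F-test, after filterByExpr (minimum count 10, minimum total 15) with TMM factors and no block, fitted on all 19016 genes kept and adjusted over all of them. Log2 fold changes are CHT-EC minus CHT-HSPC, with SE as the absolute value divided by the square root of F. CPM uses TMM-scaled totals, and 3 counts correspond to 0.0867 to 0.112 CPM. The biological coefficient of variation was 0.540. On simulated data with the means and sizes of these libraries, 45 of 100 genes changed by a log2 value of 2, 85 of 100 changed by 4 and 5 of 17819 unchanged genes were called among 18019 tested. The changed genes averaged at least 1 CPM, and every gene varied as the fitted trend over expression level gives. The coefficient of csf3a itself was 0.865 against a median of 0.441 over tested genes, so these rates may not hold for it. Gene lists were matched by symbol, through a table of gene names or by an alias. By alias, lif was matched to m17, and il1r1 to a row named il1rl1. From each pathway list the text names up to 4 called genes a direction by fold and the most abundant one, and other genes by role. The 5 genes nearest in pattern to each member were sought, and 1 of them is not reported here. The members and lists were chosen with earlier results of these data known. Alternatives used DESeq2 1.42.0, limma 3.58.1, other factors and filters, a replicate block and leaving out each library. Without molecular identifiers, the Clopper-Pearson intervals and the floors describe counting error alone. The intervals on log2 fold changes come from the edgeR fit and include the spread between libraries.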

Additional observations from a re-analysis of the deposited data

How the results depend on the processing

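All 3 genes stayed on the CHT-EC side in every setting run. With 1 library left out, the log2 fold change ran from 5.04 to 13.51 for csf3a, from 2.75 to 5.59 for csf3b and from 1.13 to 3.36 for csf3r, and the number of genes called ran from 111 to 864 higher in CHT-EC, from 10 to 139 higher in CHT-HSPC and from 0 to 5 in the G-CSF signalling list, each lowest without CHT-EC replicate 1 except csf3r. Such fits assume that the lone library varies like the other group. Calls of csf3a ended with library totals alone (7.31), DESeq2 (7.31) and limma-voom (8.37), and that of csf3b with limma-voom (4.16), while csf3r was called with DESeq2 (1.87) and with low counts left in (1.86). The cause was not tested. Genes higher in CHT-EC numbered 718, against 471 with totals alone, 2119 without the filter and 2012 with DESeq2. Genes higher in CHT-HSPC numbered 143, against 812 without the filter, 796 with DESeq2 and 233 with limma-voom. The signalling list had 10 calls without the filter and 8 with DESeq2. With the replicate number as a block the values were 7.63 (adjusted p = 0.00277) for csf3a, 4.18 (0.0132) for csf3b and 2.21 (0.0938) for csf3r, with 813 and 127 genes called, and no call of the 3 genes changed. The deviations of same-numbered libraries had a correlation of 0.0167 across genes. That value cannot show whether they came from a shared clutch or sort, which the labels do not state. With at least 10 CPM in 2 libraries csf3a was not tested, and since each member has 1 Ensembl row, summing rows gave no alternative. Depth limits csf3a in CHT-HSPC, where its level rests on 18 counts in 1 library.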

Other observations

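Immediate early and cell stress genes, which respond to handling as well as to signals, had 9 of 25 tested members called toward CHT-EC and none toward CHT-HSPC, with a median log2 fold change of 1.47 (edgeR; 19 and 0 at an unadjusted p under 0.05, 17 and 0 called with DESeq2 and 11 and 0 with limma-voom). Of all tested genes, edgeR called 3.78% higher in CHT-EC, with 14.6% at an unadjusted p under 0.05, DESeq2 10.6% and limma-voom 3.71%. Without CHT-EC replicate 1, none of them kept its call in edgeR, in a fit that called fewer of all tested genes as well. The list's median log2 fold change there was 1.07. The phosphatase gene dusp1 had 426 and 336 CPM in the CHT-EC libraries and 83.3 and 81.3 CPM in the CHT-HSPC libraries (log2 fold change 2.21, adjusted p = 0.0117). The AP-1 gene jun had 1025 and 721 CPM against 309 and 175 CPM (1.85, adjusted p = 0.0373). The list's sum was 1.63-fold higher in CHT-EC replicate 1 than in replicate 2. Of the 25 genes, 24 were higher in replicate 1, 4 of them by over 2-fold, and 0 were over 2-fold higher in replicate 2.

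In mammals the G-CSF gene lies between PSMD3 and MED24. In the RefSeq gene order of zebrafish (assembly GRCz12tu, used only for which genes neighbour each other), csf3a lies beside med24, a Mediator subunit gene, and csf3b between kpnb1, an importin gene, and psmd3, a proteasome gene. These neighbours, chosen by position, had log2 fold changes of −0.40 for med24 (edgeR adjusted p = 0.559), −0.53 for kpnb1 (0.227) and −0.06 for psmd3 (0.920). On the other side of csf3a, lrrc3ca had 7 and 12 counts in CHT-EC and none in CHT-HSPC, too few to be tested. Further from csf3a lay myof (1.55, adjusted p = 0.351), samd14 (1.77, 0.313) and top2a (−0.77, 0.188). Further from csf3b lay si:ch1073-205c8.3 (−0.33, 0.946). The levels of med24 were 23.2 and 38.8 CPM in the CHT-EC libraries and 33.9 and 48.2 CPM in the CHT-HSPC libraries, and those of psmd3 were 251 and 214 CPM against 276 and 209 CPM.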
